A study of Mus musculus with 2 samples.

Results

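The levels of 42 mouse genes of fatty acid uptake, mitochondrial oxidation and ketone body use were described in the heart at embryonic day 14.5. The genes were taken by symbol from a fixed list, not by their measured values, and all 42 matched a row among the 43346 gene rows of the deposited tables. They fell into 10 roles, from uptake at the cell surface to the breakdown of ketone bodies in the mitochondrion. Total RNA was sequenced from 2 hearts of B6NCrl mice, a C57BL/6 substrain, with 1 library per heart, no treatment and no engineered allele named in the labels. Both libraries belong to 1 group, so the design holds no contrast between conditions. The labels give collection on day 15 of July for replicate 1 and day 17 for replicate 2, so embryo and collection day differ together. They describe each sample as a single heart, of pup 1 of pregnant 2 in both cases, and also give its sex as pooled male and female, and the labels do not settle which of these holds. Hearts hold muscle, endothelial, blood and other cells, and in such bulk samples fewer cells of a type and less RNA per cell cannot be told apart.

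As background, long-chain fatty acids enter a cell with the help of surface proteins, are carried by small binding proteins and are activated to acyl-CoA. The carnitine shuttle moves the acyl group into the mitochondrion, where the cycle of beta-oxidation shortens it and passes electrons through the electron transfer flavoprotein to the respiratory chain. Tissues outside the liver turn ketone bodies back into acetyl-CoA by ketolysis. The adult heart takes most of its energy from fatty acids, whereas the fetal heart is known to rely more on glucose and lactate.

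The libraries held 2.85e+07 and 2.90e+07 expected counts, of which 2.75e+07 and 2.79e+07 lay on gene rows and 230979 and 225724 on the 42 genes. Expected counts are reads shared out among the genes they match. The tissue label was checked with markers: all 8 heart muscle markers reached 1 TPM (a level per transcript length, scaled to the same total in each library) in both libraries, and 7 of them reached 100 TPM. Of 6 fat cell markers, 5 were at 0 in both libraries and Adipoq had 0 and 3 counts, and none of 5 liver cell markers reached 1 TPM in both. The summed TPM of 7 red blood cell markers was 0.558 times as high in replicate 2 as in replicate 1, and their log2 differences in scaled counts ran from -1.26 to -0.87. The summed TPM of 7 endothelial markers was 271 and 253, and that of 6 macrophage markers was 176 and 167. On the same log2 scale the endothelial markers ran from -0.27 for Cldn5 to 0.094 for Npr3. The macrophage markers ran from -0.45 for Cd68 to 0.14 for C1qa. Among the heart muscle markers Myl7 stood at 0.43, and the others lay between -0.18 for Myh7 and 0.092 for Myh6. Of 6 skeletal muscle markers 4 reached 1 TPM in both, with a summed TPM of 859 and 770.1. That sum lay mostly on Ckm (646 and 547 TPM) and Acta1 (184 and 187 TPM), which heart muscle also expresses. Tnni2 had 18.6 and 23.9 TPM and Mylpf 9.04 and 12.2 TPM. Myog had 14 and 16 counts, and Myod1 was at 0 in both. The part of these differences between cell types in the results below was not tested.

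The 42 genes stood high among the genes of this heart. Their median was 135 TPM in the heart of replicate 1 and 133 TPM in that of replicate 2, and the median of the 12202 protein-coding genes with at least 1 TPM in both libraries was 16.1 TPM. In both libraries 41 of the 42 genes reached 1 TPM, against 56.8% of all protein-coding gene rows. At least 10 TPM was reached by 37 genes, against 35.4% of protein-coding gene rows, and at least 100 TPM by 22 genes, against 5.66%. A level of 1000 TPM was passed by Fabp3 only, against 0.466% of protein-coding gene rows. The summed level of the 42 genes was 7447 TPM and 7328 TPM, or 0.745% and 0.733% of all TPM. The 5 most abundant genes, Fabp3, Acadl, Etfb, Fabp5 and Acaa2, held 44.0% and 44.5% of that sum.

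**Figure D1:**
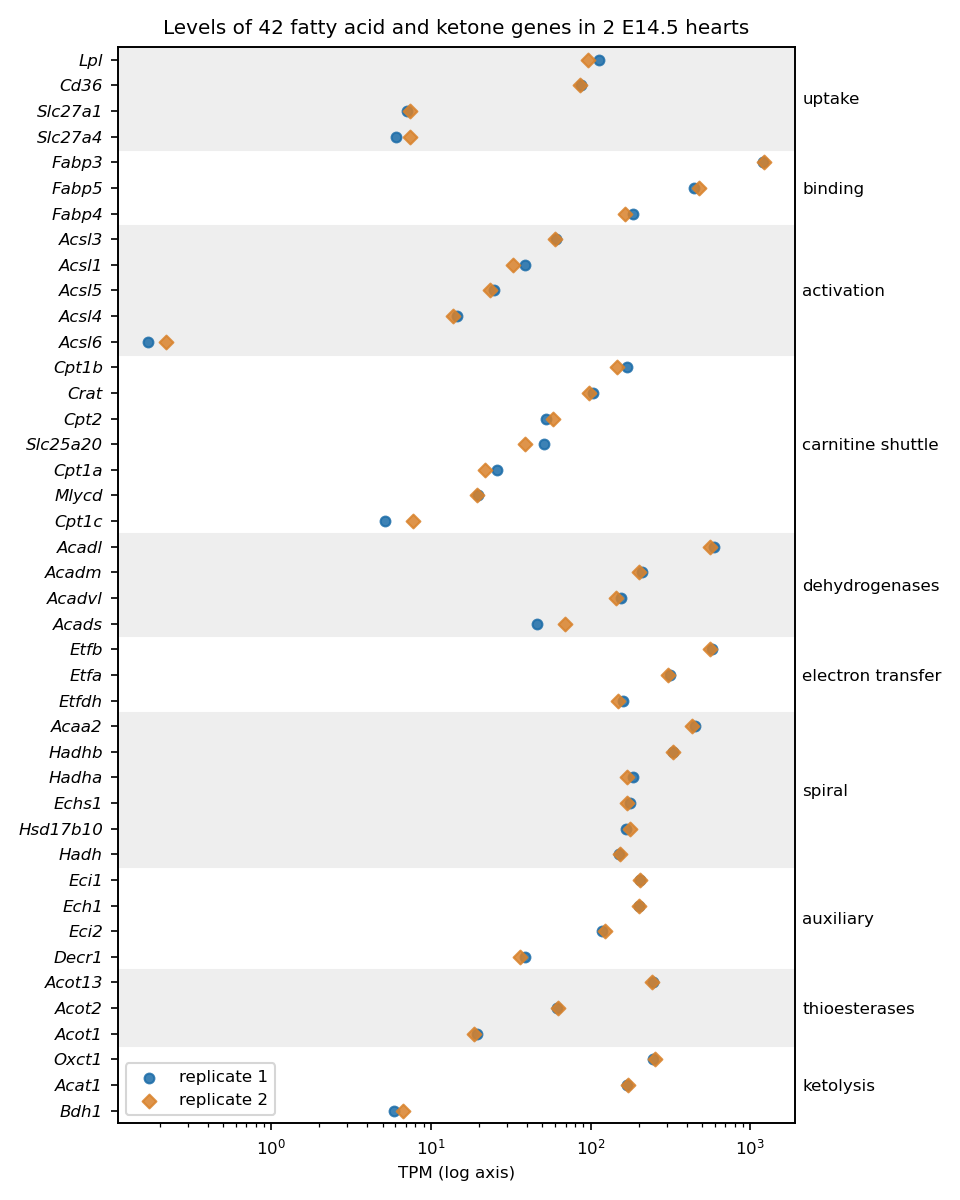
Level of each of the 42 genes in TPM on a log axis, with a circle for replicate 1 and a diamond for replicate 2, grouped by role. Most genes of the dehydrogenase, electron transfer and spiral groups sit above 100 TPM in both hearts, while Fabp3 lies above 1000 TPM and Acsl6 below 1 TPM.

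At the cell surface, Lpl and Cd36 were present at more than 10 times the level of either fatty acid transport protein. Lpl (chr8:68880491-68907448, GRCm38), the lipase that frees fatty acids from circulating lipoproteins, had 113 and 96.1 TPM in replicates 1 and 2, from 6561 and 5798 counts. The scavenger receptor Cd36, which binds long-chain fatty acids, had 86.6 and 85.6 TPM. These levels of Cd36 lay within 1.04-fold of each other on the count scale. The transport proteins Slc27a1 (FATP1), at 7.06 and 7.37 TPM, and Slc27a4 (FATP4), at 6.09 and 7.43 TPM, were among the 5 lowest of the 42 genes by mean TPM. Their order was not stable: Slc27a1 held 53.7% of the summed TPM of the pair in replicate 1 and 49.8% in replicate 2, and by counts Slc27a4 was ahead in both.

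Among the binding proteins, Fabp3, the form named for heart and muscle, was the most abundant of all 42 genes. Fabp3 (chr4:130308595-130315463, GRCm38) had 1204 and 1222 TPM (mean 1213 ± 12.2, SD, n = 2), from 18246 and 18604 counts, and ranked 101 among all gene rows. Fabp5, first described in skin, had 448 and 481 TPM. Fabp4, known from fat cells and from capillary endothelium, had 184 and 164 TPM, in libraries where the fat cell markers Plin1, Lep, Cfd, Ucp1 and Retn were at 0. Within this family Fabp3 held 65.6% and 65.5% of the summed TPM, Fabp5 24.4% and 25.7%, and Fabp4 10.0% and 8.80%. Of the stretches of 100 bases in Fabp3, 21.7% also occur in its pseudogene Fabp3-ps1, which had 243 and 260 counts, so that some reads of the 2 genes cannot be told apart.

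Activation to acyl-CoA was represented by 5 long-chain acyl-CoA synthetases at lower levels, with a sum of 139 and 130.2 TPM. Acsl3, a synthetase of the endoplasmic reticulum and lipid droplets, led with 61.1 and 59.8 TPM from 3784 and 3562 counts, or 43.8% and 45.9% of the family. Acsl1, the synthetase best known from adult heart and liver, had 38.8 and 32.8 TPM. Acsl5 followed with 24.8 and 23.5 TPM and Acsl4, which prefers arachidonic acid, with 14.6 and 13.8 TPM. Acsl6, known from brain, was the only gene of the 42 below 1 TPM, with 0.17 and 0.22 TPM. It rested on 3 and 13 counts, and the log2 ratio of replicate 2 over replicate 1, 1.90, had a 95% interval of 0.20 to 4.51 from counting error alone.

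Acsl1 has alternative start sites, and nearly all of its signal was assigned to transcripts that begin at the upstream one. Transcripts whose GENCODE M21 start lies at or within 140 bases of chr8:46471037 held 94.8% of Acsl1 TPM in replicate 1 and 92.6% in replicate 2. Those starting near chr8:46490966 held 5.16% and 7.06%, and the other annotated starts held at most 0.335%. The 150 bases before each of the RefSeq starts are shown because they differ in composition, with GC boxes (GGGCGG, either strand) in capitals. The upstream window, chr8:46470887-46471036 (+ strand, GRCm38.p6), holds 3 GC boxes at 72% G and C, and the downstream window, chr8:46490816-46490965 (+ strand), holds 0 at 54%.
Acsl1 upstream window: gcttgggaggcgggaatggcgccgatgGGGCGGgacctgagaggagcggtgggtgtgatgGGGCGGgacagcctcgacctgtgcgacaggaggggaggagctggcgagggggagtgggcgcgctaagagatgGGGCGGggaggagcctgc
Acsl1 downstream window: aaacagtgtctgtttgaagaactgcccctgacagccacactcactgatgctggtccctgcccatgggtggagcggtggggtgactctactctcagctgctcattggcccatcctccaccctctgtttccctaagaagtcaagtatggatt

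In the carnitine shuttle, the muscle isoform of the rate-limiting step was the main one. Cpt1b (chr15:89416405-89425863, GRCm38), the carnitine palmitoyltransferase of heart and skeletal muscle, had 170.5 and 148 TPM from 9958 and 8621 counts. Cpt1a, the isoform of liver and many fetal tissues, had 26.1 and 21.9 TPM, and Cpt1c, the isoform of neurons, had 5.20 and 7.75 TPM. Thus Cpt1b held 84.5% and 83.3% of the CPT1 sum, Cpt1a 12.9% and 12.4%, and Cpt1c 2.58% and 4.37%. Of the stretches of 100 bases in Cpt1b, 75.6% also lie in the overlapping gene Gm44502, annotated in GENCODE M21. Gm44502 has no row among the deposited gene rows, so the value of Cpt1b can hold reads of that gene.

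The later steps of the shuttle were lower than Cpt1b. Slc25a20, the carnitine-acylcarnitine carrier of the inner membrane, had 51.0 and 39.1 TPM from 1787 and 1382 counts. Cpt2, which rebuilds acyl-CoA on the matrix side, had 52.5 and 58.3 TPM from 2199 and 2375 counts. The log2 ratio of Cpt1b over Cpt2 was 1.70 and 1.34 (mean 1.52 ± 0.25, SD, n = 2). Crat, which moves acetyl groups onto carnitine, had 104 and 98.5 TPM. Mlycd, which destroys the Cpt1 inhibitor malonyl-CoA, had 19.8 and 19.5 TPM, within 1.05-fold on the count scale.

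The acyl-CoA dehydrogenases, which start each turn of the cycle, summed to 1005 and 975 TPM. Acadl, the long-chain enzyme, had 594 and 561 TPM from 22551 and 21430 counts, the highest counts of the 42 genes, and made up 59.1% and 57.5% of this family. Acadm, the medium-chain enzyme, had 210.2 and 201 TPM from 8206 and 7811 counts. Acadvl, the membrane-bound very-long-chain enzyme, had 155 and 144 TPM from 6270 and 5871 counts, and the log2 ratio of Acadvl over Acadl was -1.94 and -1.96. Exons of Dvl2 on the opposite strand cover 42.9% of the exon bases of Acadvl. Of the stretches of 100 bases in Acadvl, 14.9% also occur in Dvl2. Since the use of strand is not given in the sources used here, some reads of the 2 genes may be mixed.

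Acads, the short-chain enzyme, was the lowest of this family and differed most between the hearts, at 45.9 TPM in replicate 1 and 69.6 TPM in replicate 2. Its counts were 1681 and 2539, and the medium-chain Acadm exceeded it by a log2 ratio of 2.20 and 1.53 (mean 1.86 ± 0.47, SD, n = 2). The 150 bases before its RefSeq start are printed because Acads had the largest difference among the genes of adequate count. The window is chr5:115119347-115119496 (- strand, GRCm38.p6), with its GC box, here read as CCGCCC on the other strand, in capitals.
Acads window: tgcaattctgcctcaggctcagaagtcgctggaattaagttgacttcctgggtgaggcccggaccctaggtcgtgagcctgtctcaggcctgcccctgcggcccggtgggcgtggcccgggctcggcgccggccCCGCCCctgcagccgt

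Electrons from the dehydrogenases pass to the electron transfer flavoprotein, whose genes were among the most abundant. Etfb, its beta subunit, had 576 and 563 TPM from 9251 and 9081 counts, and Etfa, its alpha subunit, had 314 and 308 TPM from 8328 and 8260 counts. The log2 ratio of Etfa over Etfb was -0.87 in both libraries, so Etfb was 1.83-fold higher per length. The ratio moved less between the hearts than any other of the 8 ratios computed, with an SD of 0.0016. Etfdh, the oxidoreductase that hands these electrons to ubiquinone, had 159 and 148 TPM. Of the stretches of 100 bases in Etfb, 35.8% also lie in the annotated overlapping gene Gm45233, which has no row among the deposited gene rows.

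The enzymes of the remaining steps of the cycle all lay above 150 TPM in both hearts. Acaa2, the mitochondrial thiolase, had 454 and 433 TPM from 13444 and 12905 counts. Hadhb, the beta subunit of the mitochondrial trifunctional protein, had 329 and 328 TPM from 13344 and 13332 counts, and Hadha, its alpha subunit, had 186 and 168 TPM from 7962 and 7393 counts. Although the subunits form one complex, the log2 ratio of Hadha over Hadhb was -0.83 and -0.96 (mean -0.90 ± 0.10, SD, n = 2). Of the stretches of 100 bases in Hadhb, 14.8% also occur in Gm13910, which had 215 and 243 counts. The 323-base Hadha-204 held 25.8% and 23.1% of Hadha TPM from 2.82% and 2.47% of its counts, so the size of this ratio is uncertain. Echs1, the short-chain enoyl-CoA hydratase, had 176 and 170.2 TPM. Hadh, the hydroxyacyl-CoA dehydrogenase of shorter chains, had 151 and 154 TPM, and Hsd17b10, which also acts in isoleucine breakdown, had 167 and 176 TPM.

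Hadha and Hadhb are transcribed away from each other from neighbouring starts, so the same stretch of DNA lies before both. The gap between their annotated starts, chr5:30155163-30155247 (+ strand, GRCm38.p6), is 85 bases long, and it is shown because the pair shares it while Hadhb was 1.86-fold higher by TPM. Its 2 GC boxes are in capitals, and G and C make up 69.4% of it.
Hadha-Hadhb gap: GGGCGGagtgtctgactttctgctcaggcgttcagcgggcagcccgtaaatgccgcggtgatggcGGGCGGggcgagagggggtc

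Auxiliary enzymes that handle double bonds of unsaturated fatty acids were led by a pair at almost the same level. Eci1, an enoyl-CoA isomerase, had 205 and 204 TPM from 4258 and 4259 counts, and Ech1, a dienoyl-CoA isomerase, had 202 and 200.3 TPM. Their shares of the family, 36.3% and 36.2% for Eci1 and 35.8% and 35.5% for Ech1, stood 1 percentage point or less apart, and by counts Ech1 was ahead in replicate 1. Eci2, the isomerase found in both mitochondria and peroxisomes, had 118 and 123 TPM from 3067 and 3196 counts, for a log2 ratio of Eci1 over Eci2 of 0.79 and 0.73. Decr1, the dienoyl-CoA reductase, had 39.0 and 36.3 TPM.

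Thioesterases, which split acyl-CoA back to free fatty acid, were led by Acot13. It had 245 and 241 TPM from 3195 and 3157 counts and held 75.2% and 74.7% of the summed TPM of the 3 thioesterases. By counts the share of Acot13 was 49.2% and 48.5%, since its transcript is the shortest of the 3. The mitochondrial Acot2 had 61.7 and 62.9 TPM from 2707 and 2772 counts, and the cytosolic Acot1 had 19.4 and 18.8 TPM from 592 and 576 counts. The log2 ratio of Acot2 over Acot1 was 1.67 and 1.75. These neighbours on chromosome 12 share sequence: 17.1% of the stretches of 100 bases in Acot2 occur in Acot1, and the deposited posterior SD of the Acot1 count was 9.57 and 9.88 reads.

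For ketolysis, the enzymes of the later steps were abundant and the enzyme of the initial step was low. Oxct1 (chr15:4026383-4155344, GRCm38), the succinyl-CoA transferase that commits acetoacetate to use, had 246 and 252 TPM from 9521 and 9838 counts. Acat1, the thiolase that yields acetyl-CoA, had 170.0 and 173 TPM. Bdh1 (chr16:31422280-31458901, GRCm38), which oxidises hydroxybutyrate to acetoacetate, had 5.87 and 6.72 TPM from 125 and 174 counts, the lowest mean TPM of the 42 after Acsl6. The log2 ratio of Oxct1 over Bdh1 was 5.39 and 5.23 (mean 5.31 ± 0.11, SD, n = 2), the widest of the 8 ratios. Per base of annotated exon rather than by TPM, the mean log2 ratio was 6.11 for Oxct1 over Bdh1 and 1.82 for Eci1 over Eci2. It was 3.07 for Acot2 over Acot1 and 1.17 for Acadm over Acads. Smaller moves were those of Hadha over Hadhb (-0.90 by TPM, -1.20 per exon base) and Acadvl over Acadl (-1.95 and -2.28). Etfa over Etfb moved from -0.87 to -0.80. So the size of every ratio except Cpt1b over Cpt2 (1.52 both ways) depends on the length used.

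**Figure D2:**
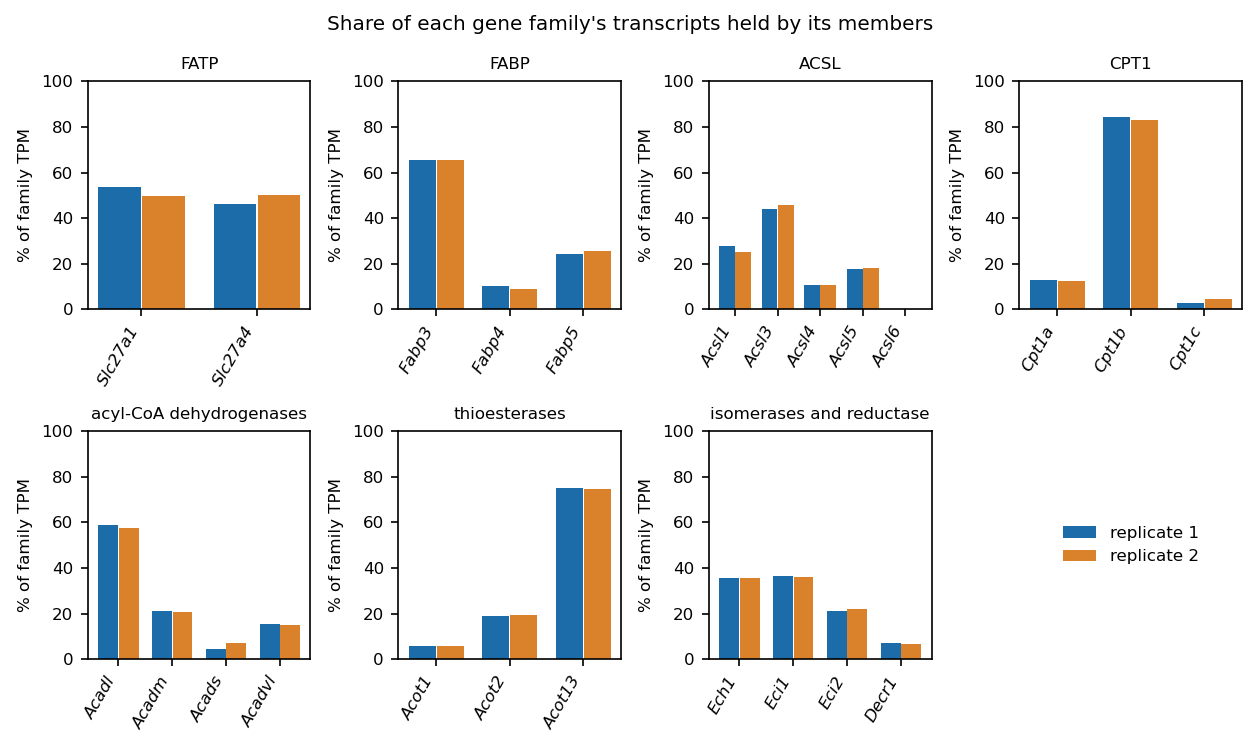
Percent of the summed TPM of 7 gene families held by each member, with 1 bar per library. Fabp3, Cpt1b, Acadl and Acot13 each hold more than 57% of their family in both hearts, while Slc27a1 and Slc27a4 change order and Eci1 and Ech1 are nearly level.

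The hearts were next compared gene by gene, as log2 of replicate 2 over replicate 1 on counts scaled by TMM (trimmed mean of M-values), with 95% intervals that cover counting error only. Reads are not independent molecules, and with 2 libraries in 1 group no test is possible, since each side of the comparison is 1 library. A mean count of 100 or more was reached by 41 of the 42 genes. A gene was called apart when its log2 difference was 0.32 or more in size. Of the 41 genes, 4 were called, and the same held for 8.66% of all 11958 genes at that count. At least 2-fold apart were 0 of the 41, against 0.426% of all genes. The share of the 41 genes that differed by these amounts was thus near that of all genes.

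Acads, Cpt1c and Bdh1 were called higher in replicate 2, a direction found for 5.38% of all genes. For Acads the scaled difference was 1.45-fold, a log2 of 0.54 with an interval of 0.45 to 0.63. Cpt1c, with 293 and 439 counts, was 1.44-fold higher, a log2 of 0.53 with an interval of 0.31 to 0.75. Bdh1 was 1.34-fold higher on few counts, with an interval from 0.083 to 0.77. Slc25a20 was the only gene called lower in replicate 2, a direction found for 3.28% of all genes, at 1.34-fold or a log2 of -0.43 with an interval of -0.53 to -0.32. Cpt1a (1.23-fold lower) and Acsl1 (1.21-fold lower) ended just inside the limit.

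Among the rest, small differences towards a lower value in replicate 2 were common with TMM scaling. Under it, 32 of the 41 genes were lower in replicate 2 by any amount, against 51.1% of all genes, and the median log2 was -0.081, against -0.0038 over all genes. The interval excluded 0 for 25 genes that were lower, against 19.8% of all genes, and for 5 that were higher, against 17.4%. Intervals are narrower for genes of higher count. Scaled to the total count of the spike-in RNAs instead, 17 of the 41 genes were lower in replicate 2, against 22.3% of all genes, and the median of the 41 turned to 0.030, while that of all genes moved to 0.11. The interval then excluded 0 for 7 genes that were lower, against 5.12% of all genes, and for 16 that were higher, against 44.1%. So the direction of the small differences moved with the scaling. The median of the 41 genes minus that of all genes was -0.078, a distance that no scaling of a whole library can change. A median below 0 was not confined to these genes. With TMM scaling it was -0.083 for the heart muscle markers, -0.14 for the endothelial and -0.18 for the macrophage markers. For the red blood cell markers it was -0.90, and for 4 skeletal muscle markers it was 0.077. Among lists described below it was -0.075 for relatives of these genes and -0.073 for malonyl-CoA and fuel choice. Regulators and carnitine supply (2 genes) had -0.17. It was 0.020 for peroxisomal oxidation, 0.049 for lipid droplets, 0.026 for Lpl partners and 0.038 for ketone synthesis and transport. The distance of the 41 genes from these lists was not tested. Under spike-in scaling Slc25a20 came to -0.31 and was no longer called, Slc27a4 (log2 0.35) was called higher, and Acads, Cpt1c and Bdh1 were called as before.

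The genes with a mean count of 100 or more spread between the hearts to a different extent in each role. All 3 electron transfer genes lay between -0.14 and -0.066 with TMM scaling, and between -0.030 and 0.045 with spike-in scaling. The carnitine shuttle, with 7 genes the largest role, ranged from -0.43 for Slc25a20 to 0.53 for Cpt1c, with Cpt1b at -0.26 and Cpt1a at -0.30. Uptake reached from -0.23 for Lpl to 0.24 for Slc27a4. Gpihbp1, which anchors Lpl on the capillary wall, had 36.0 and 29.0 TPM and a log2 of -0.40, and it was called lower under each scaling except that to the spike-ins.

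**Figure D3:**
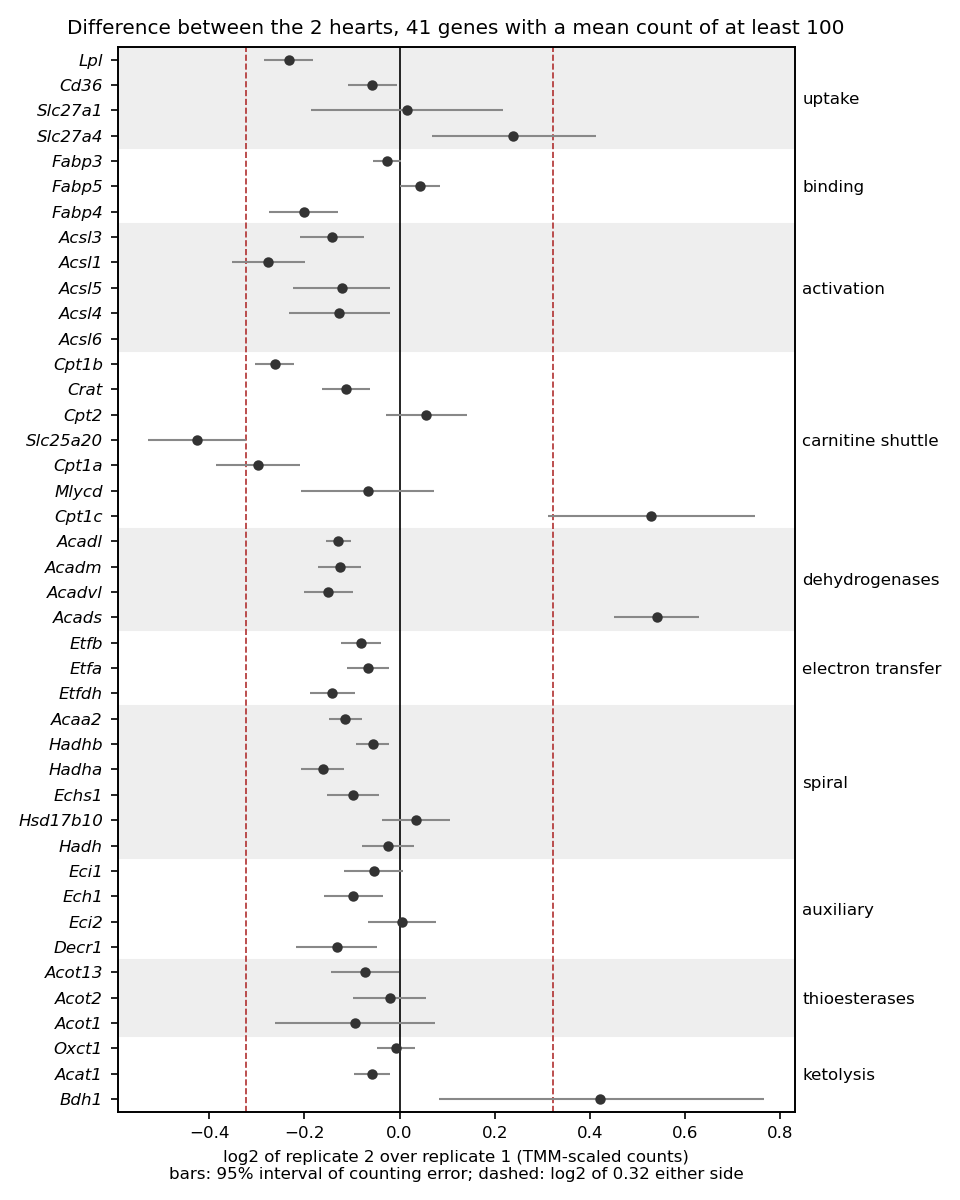
Log2 of replicate 2 over replicate 1 for the 41 genes with a mean count of 100 or more, TMM-scaled, with bars for the 95% interval of counting error and dashed lines at a log2 of 0.32 either side of 0. Most points sit slightly left of 0, Acads, Cpt1c and Bdh1 lie right of the dashed line, and Slc25a20 lies left of it.

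Transcript estimates showed which annotated forms carried these levels. The transcript tables listed 183 transcripts of the 42 genes, and 10 genes had 1 transcript. Of the other 32 genes, 30 had the same leading transcript by TPM in both libraries, and for 28 it also led by counts. In 17 of the 32 the leader held over 90% of the gene's TPM in both hearts, among them Cpt1b-201 (99.8% and 99.2%) and Acadl-201 (99.9% and 100%). Names and types follow GENCODE M21, and 164 of the 181 transcripts that could be compared have the same length there as in the tables.

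For 3 genes the leading transcript by TPM is annotated as not coding. Hadha-201, a processed transcript of 2554 bases, held 59.2% and 64.3% of Hadha TPM and 70.9% and 75.6% of its counts. The coding Hadha-205 of 4020 bases held 13.1% and 11.2% of TPM, and Hadha-204, of 323 bases, held 25.8% and 23.1% of TPM from 2.82% and 2.47% of counts. Lpl-203, a nonsense-mediated decay form, held 55.2% and 51.8% of Lpl TPM, but by counts the longer coding Lpl-201 led with 64.2% and 67.4%. Bdh1-205, a retained intron form of 438 bases, held 36.9% and 36.2% of TPM and 12.3% and 9.95% of counts.

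Short transcripts also shaped the estimate of Oxct1. Oxct1-202, of 480 bases and annotated as not coding, held 31.6% and 32.5% of its TPM from 6.52% and 6.68% of its counts. The coding forms Oxct1-205 (34.4% and 32.6%) and Oxct1-201 (34.0% and 34.9%) changed order by TPM, while by counts Oxct1-201 led in both with 62.9% and 64.5%. Reads shared between nested transcripts are split by the authors' estimate, so these shares carry its assumptions.

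Some genes spread over several coding forms. Cd36-204 led with 47.2% and 38.6% of Cd36 TPM, and 3 more coding transcripts shared the rest, with 16.3% to 24.8% each. The lengths of those 3 in the tables differ from those in GENCODE M21 by more than 500 bases. The leading form of Eci2 held 40.9% and 45.2% of its TPM and Crat-201 59.8% and 59.8% of Crat TPM, each ahead of 12 other listed forms. For Acsl6 the leader changed from Acsl6-214 to Acsl6-201 between the hearts, on 3 and 13 counts in all.

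**Figure D4:**
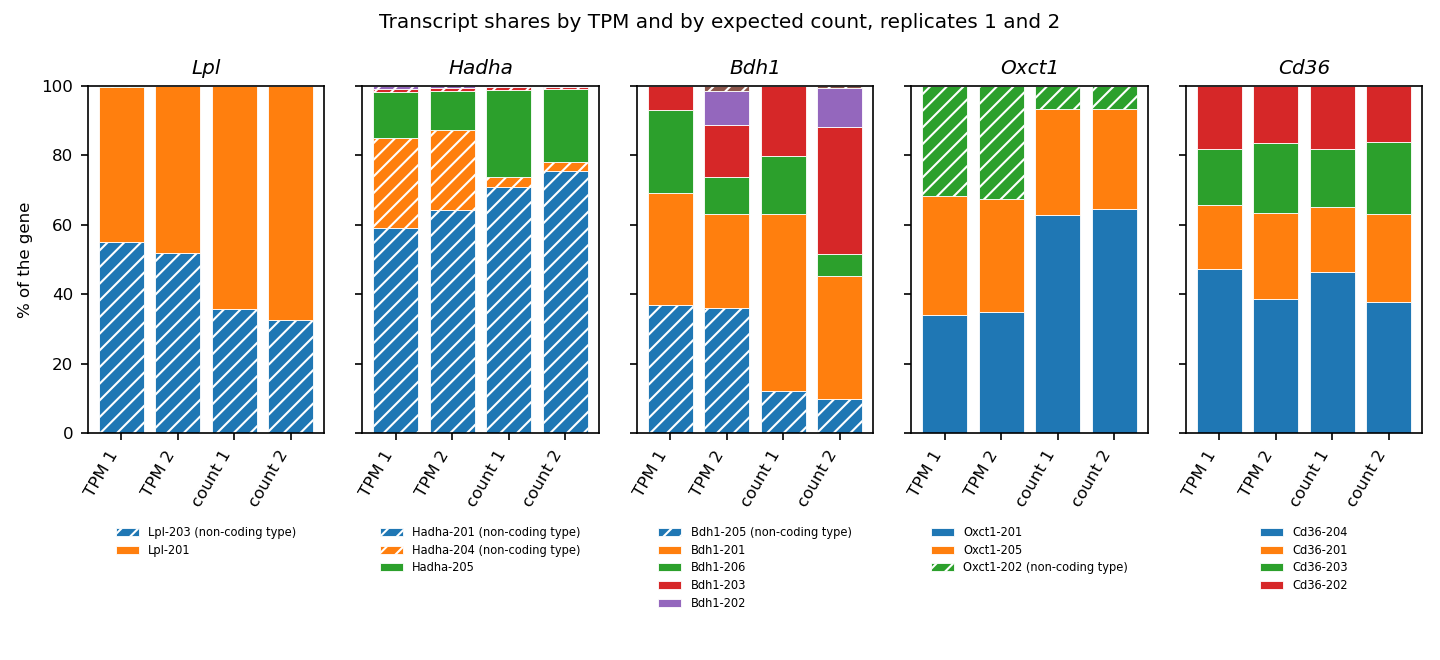
Percent of each gene held by its transcripts, by TPM and by expected count, in replicates 1 and 2, hatched where the annotated type is not protein coding. Oxct1-202 and Hadha-204 fill much of the TPM columns and little of the count columns, and the bars of the 2 hearts resemble each other for Lpl, Hadha and Oxct1.

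RefSeq promoter windows (250 bases before to 50 bases after a start, GRCm38.p6) were found for 33 of the 42 genes, 39 windows in all. Each motif was searched on both strands, and no test was made. The GC box GGGCGG was in 28 windows (71.8%), against 35.7% of all 32851 windows and 63.0% of windows of protein-coding genes with at least 1 TPM. The element AGGTCA, the core bound by many nuclear receptors, was in 7 windows (17.9%), against 16.3% of all windows and 12.0% of those of expressed coding genes, in Acadm, Acadvl, Acsl6, Cd36, Cpt1a, Cpt1c and Echs1. It is part of the longer ERR element TCAAGGTCA, found in 1 window, that of Acsl6, against 0.423% of all windows and 0.251% of those of expressed coding genes. The direct repeat of it known as DR1 was in 0 of the 39 windows, against 0.0396% of all, and TATAAA was in 0, against 13.6% of all windows and 7.16% of those of expressed coding genes. These letters say nothing on binding of a factor.

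Genes of neighbouring pathways, listed by role, were mostly lower than the 42. The transcription regulators of fatty acid oxidation had a median of 7.88 and 9.02 TPM, and all 12 reached 1 TPM. Ppargc1a, the coactivator of mitochondrial genes, led with 55.0 and 50.3 TPM, followed by the receptor Esrrg with 28.9 and 24.1 TPM and Prdm16 with 14.8 and 13.7 TPM. Ppara, the receptor best known for this pathway, had 6.81 and 8.11 TPM. Of 10 regulators with a mean count of 100 or more, 3 were called, against 8.66% of all genes. Esrrb (1.37-fold) and Prdm16 (1.28-fold) were lower in replicate 2, against 3.28% of all genes. Esrra (1.29-fold) was higher, against 5.38%. With spike-in scaling Prdm16 was no longer called. The shares called in this and the following lists were not tested.

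Peroxisomal oxidation had a median of 21.1 and 23.2 TPM, and 11 of 14 genes reached 1 TPM in both hearts. Scp2 (162 and 171 TPM), Hsd17b4 (85.1 and 80.0 TPM) and Acaa1a (61.1 and 63.5 TPM) were its highest. Of the 11 with a mean count of 100 or more, 0 were called apart, against 8.66% of all genes. Genes of malonyl-CoA and fuel choice had a median of 39.6 and 37.5 TPM, led by Ucp2 (114 and 113 TPM), Pdk3 (101 and 106 TPM) and Pdk1 (101 and 98.2 TPM). Here 0 of 11 were called, against the same 8.66%. The acyl-CoA binding protein Dbi, at 604 and 596 TPM, led the relatives of the 42 genes, ahead of Ivd (51.1 and 55.8 TPM) and Acot7 (49.2 and 56.8 TPM). In that list 12 of 21 genes reached 1 TPM, and 0 of 12 were called, against 8.66% of all genes.

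Around Lpl, Cav1, the coat protein of caveolae, had 224 and 242 TPM, and Lmf1, which matures the lipase, had 32.1 and 29.1 TPM. Gpihbp1 was 1.32-fold lower in replicate 2, from 559 and 441 counts. Lipid droplet genes had a median of 15.2 TPM in both, with G0s2 (80.4 and 86.4 TPM), Plin3 (64.4 and 71.9 TPM) and Plin2 (52.9 and 54.7 TPM) highest. Of 10 lipid droplet genes 0 were called, against 8.66% of all genes.

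Carnitine supply was the lowest list, with a median of 1.64 and 1.31 TPM over the 6 of 7 genes that matched. Aldh9a1 had 21.9 and 20.6 TPM, the carnitine transporter Slc22a5 7.09 and 6.52 TPM, and Slc22a21 2.31 and 2.04 TPM. For ketone body synthesis and transport, the carriers Slc16a3 (63.8 and 85.5 TPM) and Slc16a1 (70.0 and 64.2 TPM) were among the highest. Slc16a3, a monocarboxylate carrier known for lactate export, was 1.28-fold higher in replicate 2. It was the only 1 of 6 called, against 8.66% of all genes.

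**Figure D5:**
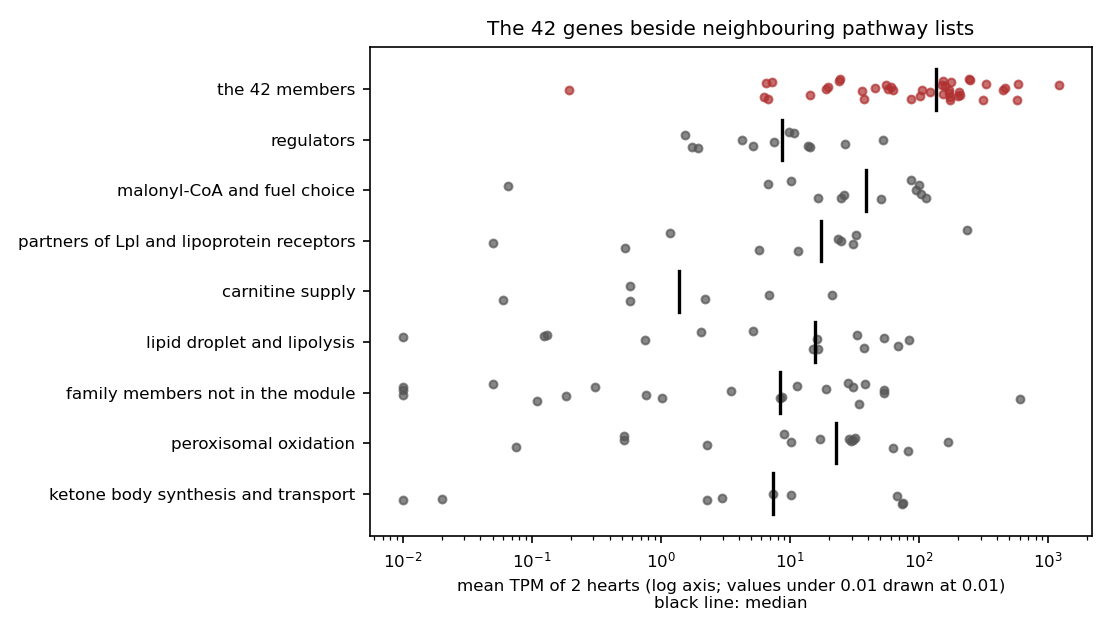
Mean TPM of the 2 hearts on a log axis for the 42 genes and for 8 lists of neighbouring pathways, 1 point per gene, with a black line at the median. The median of the 42 genes, 135 TPM, lies right of all 8 list medians, the highest of which is 38.5 TPM for malonyl-CoA and fuel choice.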

How the data were processed

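Per the deposited notes, reads were placed on mm10 with gene models of GENCODE M4. Which aligner and quantification tool were run, and whether strand was used, is not given in the sources used here. The columns carry the names that RSEM gives its output. Expected counts are estimated counts that the authors did not scale by depth, per the file headers. TPM was scaled by the authors to the same total in each library over all rows, and the deposited FPKM served only as an alternative. The authors also deposited posterior means, posterior SDs (a score of each estimate) and transcript percent values, which were recomputed here from TPM. Symbols, positions and transcript types were taken from GENCODE M21, also built on GRCm38.

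Levels are given as TPM per library, or mean ± SD over both. Differences used rounded expected counts with TMM sizes from edgeR 4.0.16 (R 4.3.3), a prior of 0.5 and exact Clopper-Pearson 95% intervals. A gene with a mean count of 100 or more was called when its log2 difference was 0.32 or more in size. The procedure was tested on simulated counts in which 200 genes were changed by known folds. These counts held counting error only, so the simulation says nothing on the spread between hearts. Stretches of 100 bases follow the read length that the deposited effective lengths imply. The labels name the 2 libraries biological replicates with different collection days, and any spread between them may also be technical.

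The 42 genes, the lists and the rules were chosen with earlier results of these data known. By the naming rule, all 42 genes are named, in full for the highest of each role, those below 1 TPM, those called and those in ratios. For lists the 3 highest genes are named, and for transcripts those whose leader changes or holds under 60% of TPM. Ppara and list genes that were called are named beyond it, and some list genes are not reported here. Promoter windows came from RefSeq (GRCm38.p6). Tmlhe was not matched. Alternatives were other scalings (DESeq2 1.42.0 size factors, spike-ins, total count), minimum counts, a prior of 5, other level units and leaving out a library.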

Additional observations from a re-analysis of the deposited data

How the results depend on the processing

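No paired analysis was possible because both libraries belong to 1 group. The median level of the 42 genes, 135 TPM, became 146 with FPKM rescaled over gene rows, 166 with TPM rescaled over protein-coding rows, 133 with posterior mean TPM and 149 over the 41 genes of adequate count (mean 100 or more). Leaving out a library gave 133 to 135. With spike-in scaling the median log2 difference reversed from -0.081 to 0.030, the number of genes lower in replicate 2 by any amount became 17 and the number called lower became 0. The all-gene median moved from -0.0038 to 0.11. With a minimum mean count of 500, 2 genes were called and 1 of them was higher, since Cpt1c and Bdh1 hold fewer counts. Among genes with a mean count of 10 or more, list medians were 51.0 TPM for malonyl-CoA and fuel choice, 23.3 for Lpl partners, 2.18 for carnitine supply, 16.3 for lipid droplets, 18.8 for relatives of the 42 genes, 28.4 for peroxisomal oxidation and 10.2 for ketone synthesis and transport, because fewer genes enter. Other summary values kept their direction and stayed within 1.5 times or 1 SD in 52 recalculations. By counts over exon length the direction of all 8 ratios was the same, but their size moved. Acot2 over Acot1 moved to 3.07, Eci1 over Eci2 to 1.82, Oxct1 over Bdh1 to 6.11 and Acadm over Acads to 1.17. Hadha over Hadhb moved to -1.20, Acadvl over Acadl to -2.28 and Etfa over Etfb to -0.80, each by more than its SD. The cause was not tested. Depth limits Acsl6, and Bdh1 and Cpt1c have wide intervals.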
